A study of Mus musculus with 33 samples.

Results

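RNA levels in mouse embryonic stem cells (ESCs) lacking HP1γ were set directly against those in ESCs lacking HP1α. The members were the 3 libraries of *Hp1γ* KO cells and the 3 libraries of *Hp1α* KO cells, of 33 libraries in the series, and the 15734 genes of 55487 that had enough counts in these 6 libraries to be tested. Both lines were C57BL/6 ESCs with a constitutive deletion made by CRISPR/Cas9 with a pair of guides, *Hp1γ* KO at the *Cbx3* locus and *Hp1α* KO at the *Cbx5* locus, with the other HP1 genes intact. Wild-type ESCs deposited in the same tables as these mutants (set A, 3 libraries) are given for orientation and did not enter this test. A further comparison used *Hp1β/γ* double mutants (DKO), *Hp1α/β* DKO, wild type set A and a second wild-type set (set B), with 3 libraries each, in which both mutants also lacked HP1β. Levels in *Hp1β* KO and in the *Hp1α/β/γ* triple mutant (TKO), with 3 libraries each, are shown for the HP1 genes and *Hp1β* KO for 1 further gene. The mutants were isolated as clones and the number of clones sequenced was not given, so a difference between lines and a difference between genotypes cannot be told apart, and p-values measure the spread between these libraries only. The cells grew with LIF on feeder fibroblasts that were depleted by plating before RNA isolation.

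HP1 proteins read methylated lysine 9 of histone H3 through a chromodomain and recruit partners, among them the methyltransferase SETDB1 and the corepressor TRIM28, through a chromoshadow domain. They help to keep repeats, retroviruses, pseudogene arrays and some germline genes silent in ESCs. Mammals carry HP1α, HP1β and HP1γ, encoded by *Cbx5*, *Cbx1* and *Cbx3*. A direct comparison of *Hp1γ* KO with *Hp1α* KO asks which transcripts depended on the paralog that was lost, and it does not pass through the wild-type libraries that every single mutant was otherwise compared with.

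Library totals ran from 19961367 to 24699608 counts in *Hp1γ* KO and from 21455118 to 23165121 in *Hp1α* KO, so the depth of both groups overlapped. Levels are given as counts per 1000000 counts of the library (CPM, with TMM factors), and levels of different genes are not compared because CPM does not correct for gene length. Of the 10 ESC markers, all 10 passed the count filter, and their summed level was 3956 to 4029 CPM in *Hp1γ* KO and 3749 to 3818 CPM in *Hp1α* KO. Of 18 feeder fibroblast markers 13 were tested, and their summed level was 74.2 to 81.3 CPM in *Hp1γ* KO, 75.9 to 78.7 CPM in *Hp1α* KO and 85.4 to 92.8 CPM in wild type set A. The fibroblast marker *Fap* was listed at 0 in all 9 of these libraries.

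The targeted genes carried the RNA difference that the labels call for. *Cbx5*, which encodes HP1α (chromosome 15, 103191544 to 103239816, minus strand, GRCm38), was at 424, 426 and 420.4 CPM in *Hp1γ* KO and at 176, 181 and 178 CPM in *Hp1α* KO, against 489 ± 6.76 CPM (SD, n = 3) in wild type. *Cbx3*, which encodes HP1γ (chromosome 6, 51470360 to 51483704, plus strand), was at 74.8, 76.9 and 76.8 CPM in *Hp1γ* KO and at 224, 204 and 209 CPM in *Hp1α* KO, against 179 ± 7.22 CPM (SD, n = 3) in wild type. The groups did not overlap for either gene. The direct difference was 1.24 ± 0.027 (log2, SE) for *Cbx5* and -1.49 ± 0.0393 for *Cbx3*, with adjusted p of 1.35e-15 and 1.57e-14 in the quasi-likelihood test of edgeR, adjusted over all tested genes after Benjamini and Hochberg. Transcripts of the targeted gene therefore remained in each mutant, at 2.36-fold less than in the other mutant for *Cbx5* and 2.8-fold less for *Cbx3*. *Cbx1*, which encodes HP1β, was at 443, 445 and 435 CPM in *Hp1γ* KO and at 468, 455 and 459 CPM in *Hp1α* KO, and its difference of -0.07 ± 0.0244 (log2, SE) did not pass (adjusted p = 0.0511 in edgeR's quasi-likelihood test).

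The guides are printed because they define what each line lost. Capitals mark the 12 bases next to the PAM.
HP1α upstream guide: ctcgccagTTCTGCCGAGAT
HP1α downstream guide: ggctgagtGAGAACTAGTAG
HP1γ upstream guide: gaggtgctTACACTGGATCA
HP1γ downstream guide: tatgatagCCTTGCCGAGCG
All 4 guides are 20 bases long, and none had an exact match on either strand of the GENCODE M21 transcripts. Their genome positions were not analysed here.

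**Figure D1:**
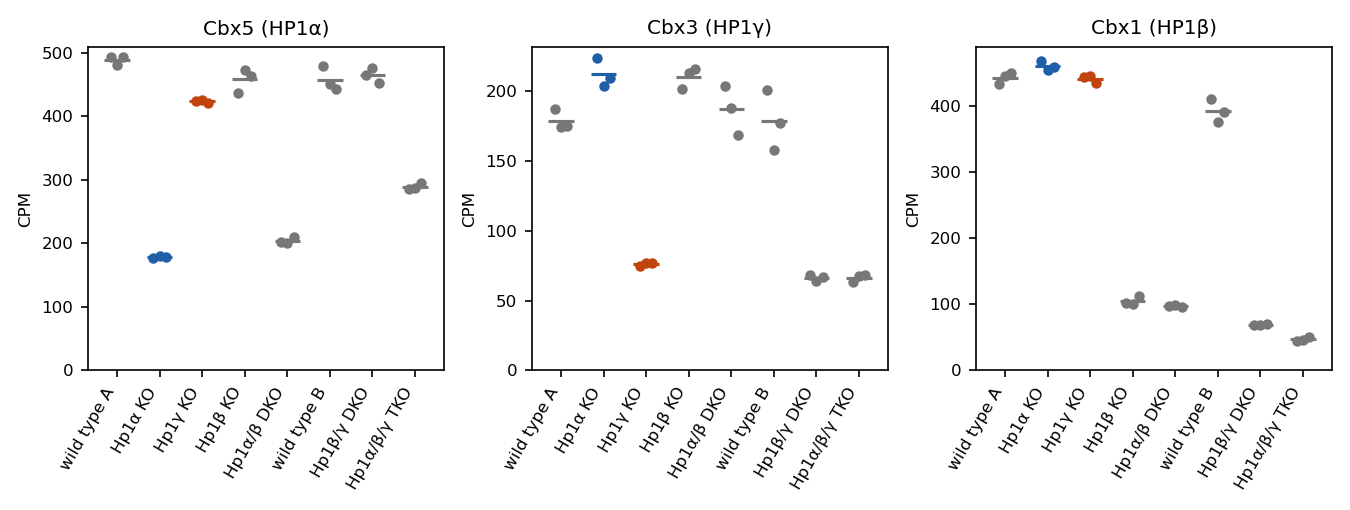
Level of *Cbx5*, *Cbx3* and *Cbx1* in CPM (vertical axes) in each library of the wild-type sets A and B and of the single, double and triple mutants, with points for libraries and bars for the mean of each group of 3. *Cbx5* sat at 176 to 181 CPM in *Hp1α* KO (blue) and 420.4 to 426 CPM in *Hp1γ* KO (red), *Cbx3* at 204 to 224 and 74.8 to 76.9 CPM, and *Cbx1* was low only in groups labelled as lacking HP1β.

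The loss of HP1γ and the loss of HP1α left ESCs with transcriptomes in which a limited set of genes differed by over 2-fold. Genes higher in *Hp1γ* KO included pseudogenes, predicted transcripts and zinc finger genes, besides *Slc15a2*, *Cyp2b23* and *Arntl2*. Genes lower in *Hp1γ* KO included *Rhox5*, *Mcc*, *Pclo*, *Frem2* and *Trh*. At an adjusted p under 0.05 and a difference over 1 on the log2 scale, 259 genes (1.65% of those tested) were called, 155 (0.985%) higher and 104 (0.661%) lower in *Hp1γ* KO. By adjusted p alone 2938 genes (18.7%) passed, 1465 (9.31%) higher and 1473 (9.36%) lower, and the median difference over all tested genes was -0.004 (log2). The 2 groups of libraries did not overlap for 5345 genes (34% of those tested), among them 148 of the 155 and 101 of the 104 called genes. Of the called genes, 45 of the higher ones and 29 of the lower ones reached 5 CPM in the higher group, and 96 and 86 were protein coding. Symbols of predicted genes (*Gm* or *Rik*) made up 62 of the 155 and 22 of the 104. The shares of such symbols and of protein-coding genes over all tested genes were not counted, so these numbers describe the called genes only. A requirement that the change itself exceed 1 on the log2 scale left 36 called genes, 25 higher and 11 lower.

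**Figure D2:**
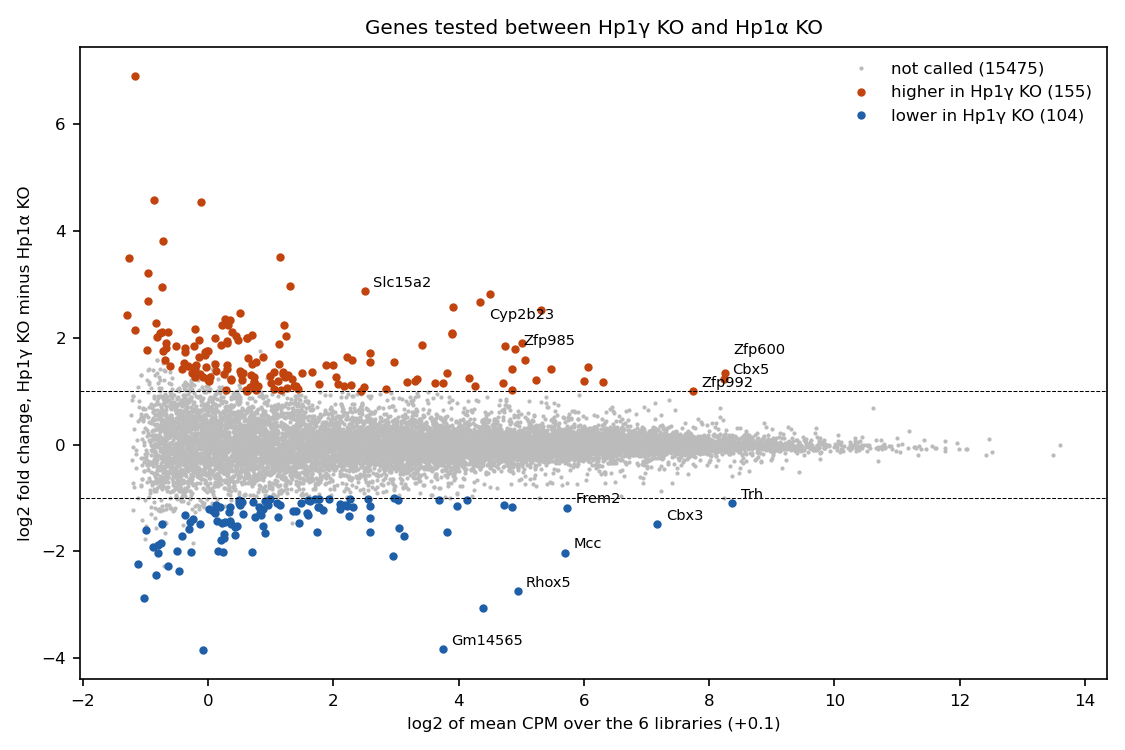
Difference between *Hp1γ* KO and *Hp1α* KO (log2, vertical axis) against mean level (log2 CPM, horizontal axis) for the 15734 tested genes, with the 155 genes called higher and the 104 called lower in colour. Most genes lie near 0, *Gm14565* lies at -3.83 and *Slc15a2* at 2.87.

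Among the genes with the largest rises in *Hp1γ* KO over *Hp1α* KO at 5 CPM or more were genes of transport, xenobiotic metabolism and the circadian clock. *Slc15a2*, which encodes a proton-coupled peptide transporter (chromosome 16, 36750177 to 36784962), was at 10.9, 9.89 and 8.72 CPM in *Hp1γ* KO and at 0.645, 1.85 and 1.47 CPM in *Hp1α* KO. The groups lay far apart, the *Hp1α* KO libraries close to the wild-type mean of 1.87 CPM, and the difference was 2.87 ± 0.234 (log2, SE, adjusted p = 6.54e-08, edgeR's quasi-likelihood test). In bulk RNA, more cells with a transcript and more of it per cell cannot be told apart, here and for every gene below. *Cyp2b23*, a cytochrome P450 gene (chromosome 7, 26665227 to 26686437), was at 34.0, 33.8 and 37.2 CPM against 5.67, 4.10 and 6.71 CPM. Both mutants lay above the wild-type 2.74 ± 0.295 CPM (SD, n = 3), *Hp1γ* KO by far more, and the direct difference was 2.67 ± 0.115 (log2, SE, adjusted p = 8.81e-12). *Arntl2*, which encodes a bHLH-PAS partner of the circadian clock, was at 47.1, 52.5 and 53.1 CPM against 15.1, 13.4 and 12.2 CPM, with *Hp1α* KO close to the wild-type 14.6 CPM and a difference of 1.90 (log2). *Mep1b*, which encodes a subunit of the metalloprotease meprin, was at 36.6, 43.7 and 45.3 CPM against 11.1, 12.4 and 11.0 CPM, both above the wild-type 4.37 CPM, and differed by 1.86 (log2). *Tlr2*, which encodes a receptor for bacterial lipoproteins, was lower in level, with 8.26, 6.87 and 5.52 CPM against 2.21, 1.68 and 2.71 CPM and a difference of 1.64 (log2).

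A second group of rises came from transcripts for which *Hp1α* KO lay below wild type and *Hp1γ* KO above it. *Gm49273*, a processed pseudogene, was at 39.4, 37.1 and 41.8 CPM in *Hp1γ* KO and at 6.36, 5.78 and 4.38 CPM in *Hp1α* KO, on either side of 13.4 CPM in wild type, and differed by 2.83 ± 0.102 (log2, SE, adjusted p = 7.54e-13, edgeR's quasi-likelihood test). *Gm17131*, an unprocessed pseudogene on chromosome 5, was at 66.4, 64.9 and 71.7 CPM against 13.1, 10.4 and 11.7 CPM, with wild type at 26.6 CPM. It differed by 2.52 (log2), and its direct neighbour *Gm17132* by 2.58. *Gm48111* (2.1), *Cphx3* (1.73) and the antisense transcript *1700095A21Rik* (1.87) had wild type between the mutants too. *Zp3r*, which encodes a sperm protein that binds the egg coat, was at 24.1, 22.4 and 25 CPM against 6.13, 5.60 and 5.04 CPM, with wild type at 11.5 CPM, and differed by 2.08 (log2). Pseudogenes share sequence with their parent genes and the counts did not use a stated strand setting, so the split of reads among such copies, and between antisense partners, is uncertain.

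Several of the largest falls were of transcripts held at similar levels in *Hp1α* KO and wild-type cells and far lower in *Hp1γ* KO. *Gm14565*, a long non-coding RNA on the X chromosome (38705481 to 38737762), was at 1.90, 2.27 and 1.07 CPM in *Hp1γ* KO and at 24.7, 23.4 and 27.0 CPM in *Hp1α* KO, beside 24.2 CPM in wild type. It was 14.3-fold lower, a difference of -3.83 ± 0.156 (log2, SE, adjusted p = 4.09e-12, edgeR's quasi-likelihood test). *4930586N03Rik*, an antisense transcript, followed with 4.87, 4.84 and 3.71 CPM against 39.7, 37.7 and 34.1 CPM, a difference of -3.06 (log2). *Mcc*, named for its mutation in colorectal cancers (chromosome 18, 44425060 to 44812182), was at 21.6, 19.4 and 20.8 CPM against 87.0, 81.1 and 81.2 CPM, near the wild-type 73.5 CPM, and differed by -2.02 ± 0.0561 (log2, SE, adjusted p = 2e-14). *Pclo*, which encodes the presynaptic scaffold piccolo, was at 4.41, 3.18 and 4.68 CPM against 12.5, 13.6 and 13.6 CPM, both below 19.8 CPM in wild type, and differed by -1.71 (log2). *Khdc3*, which encodes a protein of the maternal complex of oocytes, was at 3.54, 4.14 and 4.73 CPM against 11.5, 13.1 and 12 CPM and differed by -1.56 (log2). Wild type was at 21.0 CPM, so *Hp1α* KO lay below it as well, and *Gm20509* overlaps the gene. The antisense transcript *Ptprtos* (-1.64) and the lymphocyte receptor gene *Cd84* (-1.33) were also lowest in *Hp1γ* KO of these 3 genotypes.

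Other lower genes had their highest level in *Hp1α* KO. *Rhox5*, an X-linked homeobox gene of the reproductive cluster (37804842 to 37808876), was at 8.31, 7.28 and 8.53 CPM in *Hp1γ* KO and at 53.1, 54.1 and 52.7 CPM in *Hp1α* KO. The wild-type mean of 16.1 ± 1.79 CPM (SD, n = 3) lay between them, and the difference was -2.74 ± 0.0732 (log2, SE, adjusted p = 1.57e-14, edgeR's quasi-likelihood test). *Frem2*, which encodes an extracellular matrix protein of epithelial basement membranes, was at 32.4, 33.0 and 32.7 CPM against 72.4, 74.3 and 74.2 CPM, with wild type at 55.2 CPM, and differed by -1.18 (log2). *Gm29695* (-2.09), *Pnma5* (-1.65), *Oasl2* (-1.37) and *Gm41609* (-1.21) were highest in *Hp1α* KO as well. *Gm48551* (-1.17, adjusted p = 0.0136) had the widest spread of the falls named by rule, from 1.03 to 4.22 CPM in *Hp1γ* KO and from 4.54 to 8.80 CPM in *Hp1α* KO. It was at -0.79 without *Hp1γ* KO replicate 1 and -0.94 without *Hp1α* KO replicate 1, short of the call. 3 genes chosen after their values were seen had the same shape. *Trh*, the precursor of thyrotropin-releasing hormone, was at 222, 210.4 and 206 CPM against 452, 439 and 457 CPM, with wild type at 251 CPM, and differed by -1.09 (log2). *Prickle1*, a planar cell polarity gene, was at 17.1, 18.6 and 17.4 CPM against 43.2, 38.1 and 37.9 CPM (-1.17), and *Gfra1*, a co-receptor for the growth factor GDNF, at 10.3, 9.76 and 9.32 CPM against 20.5, 23.3 and 21.1 CPM (-1.15).

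**Figure D3:**
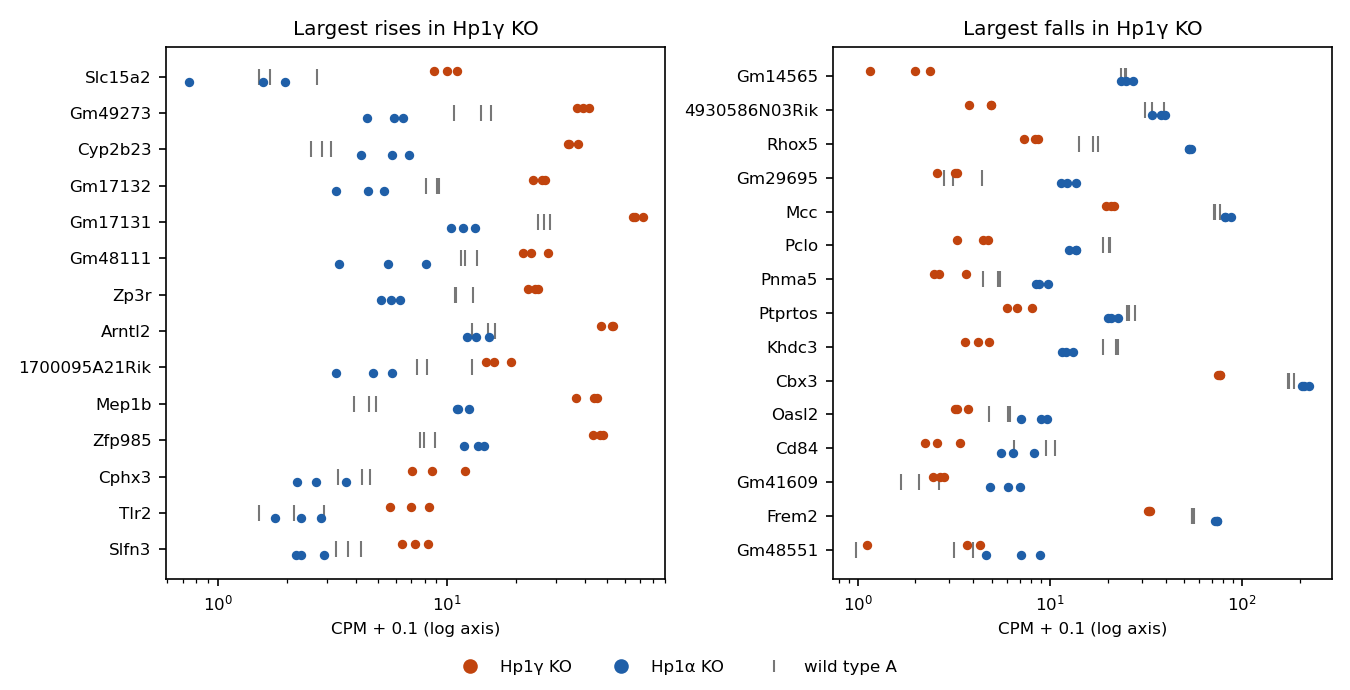
Level of genes with the largest rises and falls (CPM with 0.1 added, logarithmic axis) in the 3 *Hp1γ* KO libraries (red), the 3 *Hp1α* KO libraries (blue) and the wild type set A libraries (ticks). The red and blue points do not overlap for any gene drawn, and wild type falls near blue for *Arntl2* and *Mcc* but between the colours for *Gm49273* and *Rhox5*.

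The position of wild type set A showed which mutant had moved away from it, as a description with no test. Of the 155 genes higher in *Hp1γ* KO, 60 were over 2-fold above wild type in *Hp1γ* KO alone and 41 were over 2-fold below it in *Hp1α* KO alone. A further 6 were past 2-fold in opposite directions in both mutants, 10 in the same direction in both, and 38 in neither. Of the 104 genes lower in *Hp1γ* KO, 49 were over 2-fold below wild type in *Hp1γ* KO alone, 19 over 2-fold above it in *Hp1α* KO alone, 4 moved past 2-fold in the same direction in both and 32 in neither. The mutant farther from wild type was *Hp1γ* KO for 94 of the 155 higher genes and 65 of the 104 lower genes. Since wild type lay between the mutants for 93 and 60 of them, the direct difference of many genes was built from smaller shifts on both sides.

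A stretch of distal chromosome 4 held 11 of the 155 genes higher in *Hp1γ* KO. It is an array of zinc finger genes and related pseudogenes, and many zinc finger proteins of the KRAB class bind retroviral sequences and recruit TRIM28. Between 145410245 and 147738426 (GRCm38) lie 82 annotated genes, of which 46 were tested, and 43 of the 46 were higher in *Hp1γ* KO. Besides the 11 called higher, 0 were called lower, and 34 passed adjusted p alone as higher and 0 as lower, beside 0.985% and 9.31% over all tested genes. The median difference was 0.75 (log2). The stretch was found by joining called genes that lie within 500 kb of each other, a choice made after the values were seen, so its counts are a description.

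Most of that difference lay on the side of *Hp1α* KO. Of the 46 genes, 43 were below wild type in *Hp1α* KO, with a median of -0.65 (log2), while in *Hp1γ* KO 28 were above and 18 below, with a median of 0.06. Summed over the stretch the level was 2938 CPM in *Hp1γ* KO, 1677 CPM in *Hp1α* KO and 2574 CPM in wild type. *Zfp600* was at 418, 415 and 480.0 CPM in *Hp1γ* KO and at 175, 174 and 162 CPM in *Hp1α* KO, with wild type at 293 CPM and a difference of 1.35 (log2, adjusted p = 4.21e-13, edgeR's quasi-likelihood test). *Rex2*, another zinc finger gene of the stretch, was at 86.8, 88.1 and 92.3 CPM against 38.8, 41.8 and 34.8 CPM, with wild type at 68.2 CPM, and differed by 1.20 (log2). The pseudogene *Gm13230* was at 94.6, 99.8 and 101 CPM against 37.6, 35.7 and 34.1 CPM, with wild type at 84.1 CPM, and differed by 1.45 (log2). *Zfp985* was 1 of the 3 genes that were not below wild type in *Hp1α* KO, since both mutants lay above it, at 48.1, 43.4 and 46.8 CPM in *Hp1γ* KO and 14.4, 13.6 and 11.8 CPM in *Hp1α* KO against 8.07 CPM, with a difference of 1.78 (log2). *Zfp992* differed by 1.01 (log2), just inside the limit, and fell to 0.99 without *Hp1γ* KO replicate 3 and to 0.95 without *Hp1α* KO replicate 3. *Gm13155* and *Gm13136*, also among the 11 called genes of the stretch, lost their calls without *Hp1γ* KO replicate 3 or *Hp1α* KO replicate 2, among other libraries.

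Zinc finger genes elsewhere differed less, though more of them passed as higher than as lower. Of the 16 tested genes of the stretch with a *Zfp* symbol, all 16 were higher in *Hp1γ* KO by 0.35 to 1.78 (log2) and 15 passed adjusted p alone. Of 338 tested *Zfp* genes outside the stretch, 2 were called higher and 0 lower, beside 0.985% and 0.661% over all tested genes. By adjusted p alone 49 were higher and 7 lower, beside 9.31% and 9.36%. Of the 338, 206 were above 0 and the median difference was 0.04 (log2). *Zfp984*, just past the end of the stretch, is counted among the 338. The genes of the stretch are near copies of each other, so reads can be split among them in ways that the counts do not show, and the summed level above is less exposed to that than any of the genes alone.

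**Figure D4:**
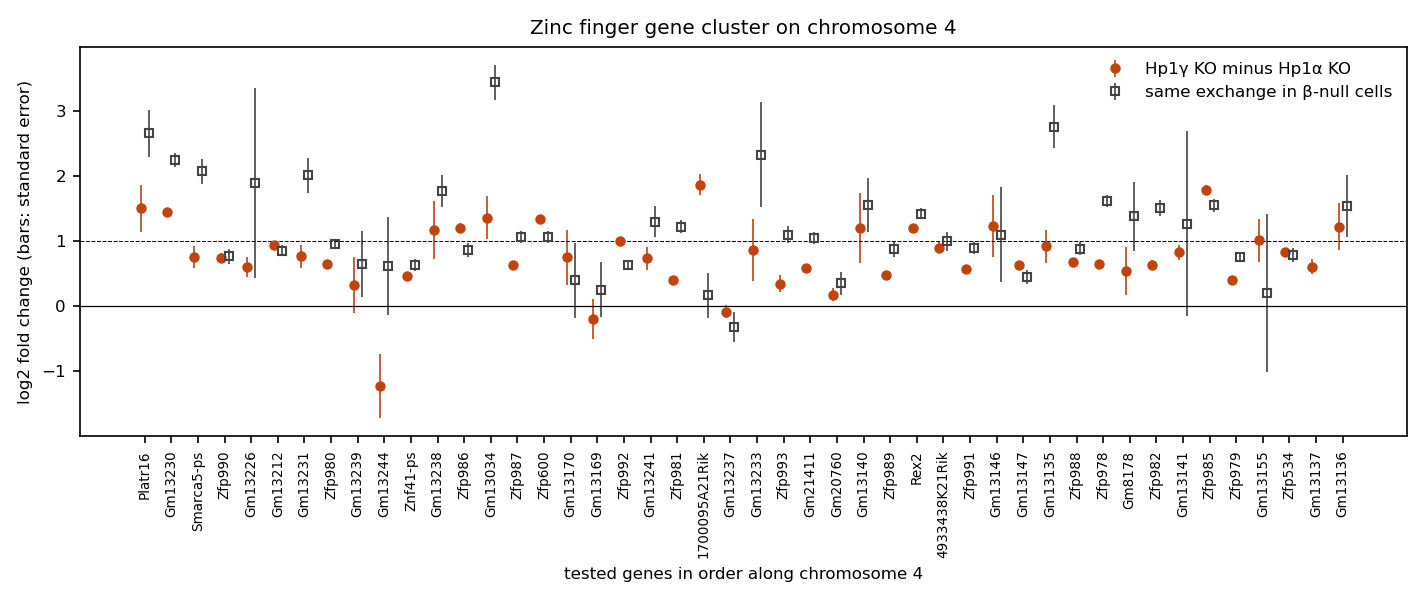
Difference (log2, vertical axis) for the tested genes of the chromosome 4 stretch in gene order, for *Hp1γ* KO against *Hp1α* KO and for the same contrast in cells without HP1β, with bars for the standard error and a dashed line at the limit of a call. Of the 46 genes, 43 lie above 0 in the first comparison and 45 in the second, and values with a standard error of 2 or more (*Gm13137*) are not drawn.

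The starts of many of these genes carry a shared sequence, shown as a description of the array. RefSeq promoter windows (250 bases before to 50 after the start, GRCm38.p6) were matched for 14 genes of the stretch, and capitals mark a run of 15 bases found in 10 of the 14.
Gm13212 (chr4:145585020-145585149, plus strand): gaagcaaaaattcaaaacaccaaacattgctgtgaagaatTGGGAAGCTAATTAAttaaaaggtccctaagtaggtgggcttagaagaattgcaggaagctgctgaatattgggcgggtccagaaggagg
Zfp600 (chr4:146156652-146156781, plus strand): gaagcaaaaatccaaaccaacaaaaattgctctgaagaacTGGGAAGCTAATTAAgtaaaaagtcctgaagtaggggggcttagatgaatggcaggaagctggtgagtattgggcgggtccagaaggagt
Rex2 (chr4:147021675-147021804, plus strand): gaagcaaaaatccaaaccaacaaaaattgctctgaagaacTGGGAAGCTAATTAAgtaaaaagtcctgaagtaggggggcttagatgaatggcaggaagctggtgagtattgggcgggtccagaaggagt
Zfp985 (chr4:147553101-147553230, plus strand): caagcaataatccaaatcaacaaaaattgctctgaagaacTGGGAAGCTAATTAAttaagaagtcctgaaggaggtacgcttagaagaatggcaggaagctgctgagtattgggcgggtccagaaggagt
The run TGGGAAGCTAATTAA, searched on both strands, was present in 11 of 27025 promoters of the table and in 11 of 11440 promoters of tested genes (0.0962%). The 11 holders differed by 0.40 to 1.78 (log2), all higher in *Hp1γ* KO. The eleventh, *Zfp984* (147753974 to 147809788), lies just past the last called gene in the same array and was 0.50 (log2) higher in *Hp1γ* KO (adjusted p = 5.54e-06, edgeR's quasi-likelihood test). Genes of the stretch whose matched promoters lacked the run were higher too, among them *1700095A21Rik* (1.87) and *4933438K21Rik* (0.90, log2). Of the 46 tested genes of the stretch 43 were higher, so the direction does not set the holders apart. The run was picked because these promoters share it, and a shared run in near copies is a description of the copies, not of a binding site.

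Shorter runs of called genes lay on other chromosomes. A run was at least 4 called genes with gaps of at most 500 kb, bounded by its first and last called gene. The counts called within a run follow from that rule and are a description. Over all tested genes 0.985% were called higher and 0.661% lower, and 9.31% passed adjusted p alone as higher. On chromosome 11 (82978390 to 83260960), in the cluster of Schlafen genes, several of which are induced by interferon, 4 of 5 tested genes were called higher. *Slfn9* was at 27.0, 25.7 and 25.5 CPM in *Hp1γ* KO and at 11.1, 13.1 and 12 CPM in *Hp1α* KO (1.10, log2), and *Slfn3* at 7.18, 6.29 and 8.16 CPM against 2.81, 2.20 and 2.09 CPM (1.59). On chromosome 13 (61804257 to 62858422) 5 of 18 tested genes were called higher and 13 passed adjusted p alone as higher. Runs on chromosomes 18, 9 and X were mixed. Of 34 tested genes on chromosome 18, 1 was called higher and 3 lower, with *Pcdhga3*, *Pcdhgb8* and *Pcdh1* lower. The higher one was *Gm42416*, whose gene model overlaps those of *Pcdhga3* and *Pcdhgb8*. Of 18 on chromosome 9, 1 was called higher and 3 lower: *Khdc3*, *Gm20509*, which overlaps it, and *Gm27232*. Of 9 on X, 2 were called higher, *Bgn* among them, and 2 lower, *Pnma5* and *Xlr3a*. *Gm20509* lost its call without *Hp1γ* KO replicate 2. *Gm27232* and *Bgn* lost theirs without *Hp1γ* KO replicate 1, *Hp1γ* KO replicate 3 or *Hp1α* KO replicate 3. On chromosome 15, *Gm49272*, *Gm49273* and *Gm49274* were called higher as neighbours of each other. *Cbx5* lies within 500 kb of them, with 8 tested genes between that were not called. Over whole chromosomes the median difference stayed between -0.03 and 0.02 (log2) for the autosomes and X, so the runs were local.

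Promoters of the called genes were poorer in CpG than those of all tested genes. The median number of CG dinucleotides in the 300-base window was 6 for the called-higher genes with a matched promoter and 12.5 for the called-lower ones, against 20 over all 11440 matched promoters of tested genes, and the median GC content was 51.7%, 56% and 60.7%. The E-box CACGTG, searched on both strands, was in 5 of 83 promoters of called-higher genes (6.02%), 4 of 70 of called-lower genes (5.71%) and 10% of all. The letters TCCCGC, part of the E2F6 motif, were in 14.5%, 21.4% and 35.9%. The part of GC content in these shares was not tested.

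The pluripotency network was present in both mutants, with differences that were mostly under 2-fold. Of the genes of the formative and primed states, which open as ESCs leave the naive state, more passed as lower than as higher in *Hp1γ* KO. Of 21 tested, 1 was called lower and 0 higher, while by adjusted p alone 12 were lower and 1 higher, beside 9.36% and 9.31% over all genes, and the list median was -0.31 (log2). *Fgf5*, the growth factor that marks the primed epiblast, was at 1.13, 0.579 and 0.881 CPM in *Hp1γ* KO and at 2.72, 1.90 and 3.47 CPM in *Hp1α* KO, with wild type at 0.646 CPM, and differed by -1.66 ± 0.332 (log2, SE, adjusted p = 0.00151, edgeR's quasi-likelihood test). *Pim2*, a serine/threonine kinase gene, was at 108, 109 and 104 CPM against 195, 190.0 and 196 CPM, with wild type at 82.1 CPM (-0.87, log2). *Pou3f1*, a POU factor of the formative state, was at 45.5, 37.1 and 38.9 CPM against 67.6, 65.4 and 65.0 CPM (-0.72), and *Otx2*, the homeobox factor that drives the exit from the naive state, at 25.1, 23.5 and 22.8 CPM against 32.5, 33.3 and 37.0 CPM (-0.54). Wild type lay below both mutants for *Otx2*, at 6.21 CPM, so *Hp1γ* KO was the nearer of the pair to wild type for these 4 genes.

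Genes of the naive and core network gave 0 calls among 30 tested at an adjusted p under 0.05 and a 2-fold difference in edgeR's quasi-likelihood test, while by adjusted p alone 12 were higher and 8 lower, beside 9.31% and 9.36% of all tested genes. The list median was 0.08 (log2). *Tbx3*, a T-box factor of the naive state, was at 16.3, 16.9 and 16.1 CPM in *Hp1γ* KO and at 8.80, 8.73 and 7.94 CPM in *Hp1α* KO (0.94, log2). *Nanog* was at 312, 305 and 292 CPM against 238, 239 and 244 CPM (0.33), both above 208 CPM in wild type. *Klf2* was at 413, 399.6 and 392 CPM against 318, 309 and 333 CPM (0.32), both below 545 CPM in wild type, and *Gbx2* went the other way, at 22.4, 21.5 and 19.9 CPM against 36.0, 35.2 and 35.0 CPM (-0.75). *Pou5f1* (0.05, adjusted p = 0.141) and *Sox2* (-0.01, adjusted p = 0.8) did not pass. Of the genes of DNA methylation, 3 of 7 were higher and 2 lower by adjusted p alone and 0 were called. *Tet2*, which encodes a 5-methylcytosine dioxygenase, was at 120, 127 and 127 CPM against 76.7, 86.9 and 77.1 CPM (0.62), while the de novo methyltransferase genes *Dnmt3a* (-0.41) and *Dnmt3b* (-0.27) were lower in *Hp1γ* KO.

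Genes of differentiated lineages gave 1 call. *Neurog1*, a proneural bHLH factor, was at 21.0, 18.1 and 21.2 CPM in *Hp1γ* KO and at 5.62, 9.39 and 8.61 CPM in *Hp1α* KO, both above the wild-type 2.74 CPM, and differed by 1.34 ± 0.136 (log2, SE, adjusted p = 1.13e-06, edgeR's quasi-likelihood test). By adjusted p alone, beside 9.31% of all tested genes higher and 9.36% lower, 3 of the 11 neural genes were higher and 3 lower, 4 of 16 primitive endoderm genes were higher and 2 lower, and 2 of 12 trophoblast genes were higher and 0 lower. Of the 12 BMP pathway genes 3 were higher and 0 lower, with a median of 0.25 (log2), and of 11 Nodal pathway genes 2 were higher and 2 lower.

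Interferon and nucleic acid sensing genes were lower in *Hp1γ* KO where they passed. Of 25 tested, 3 were called lower, beside 0.661% of all tested genes, and 0 higher. By adjusted p alone 8 were lower, beside 9.36%, and 0 higher, with a median of -0.17 (log2). *Oasl2*, an interferon-induced gene of the oligoadenylate synthetase family, was at 3.64, 3.10 and 3.20 CPM in *Hp1γ* KO and at 8.89, 9.61 and 6.94 CPM in *Hp1α* KO (-1.37, adjusted p = 7.85e-06, edgeR's quasi-likelihood test), with wild type at 5.63 CPM. *Psmb8*, an immunoproteasome subunit gene, was at 1.85, 1.82 and 2.60 CPM against 3.32, 3.70 and 5.61 CPM (-1.02), and it lost the call without *Hp1γ* KO replicate 1 (-0.94), *Hp1γ* KO replicate 2 (-0.92) or *Hp1α* KO replicate 3 (-0.76). *Ifit1* was called on 6 counts in all of *Hp1γ* KO and 46 in *Hp1α* KO. *Bst2*, which encodes the restriction factor tetherin, was at 34.0, 41.1 and 36.5 CPM against 63.8, 59.0 and 65.4 CPM, beside 59.5 CPM in wild type (-0.76). The Schlafen genes above went the other way.

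Calls within the lists of germline genes and protocadherins were all lower in *Hp1γ* KO. The sperm protein gene *Zp3r*, which is not on the germline list, was called higher (2.08, log2). Of 48 germline and meiosis genes tested, 2 were called lower, *Rhox5* and *Rhox9*, beside 0.661% of all tested genes, and 0 higher, while by adjusted p alone, beside 9.31% and 9.36% of all tested genes, 6 were higher and 7 lower. *Rhox9*, a neighbour of *Rhox5* in the reproductive homeobox cluster, was at 3.28, 3.02 and 3.15 CPM in *Hp1γ* KO and at 7.05, 5.69 and 6.18 CPM in *Hp1α* KO (-1.01, log2), with -0.98 without *Hp1γ* KO replicate 2 and -0.92 without *Hp1α* KO replicate 1. Of 44 imprinted genes 0 were called in edgeR's quasi-likelihood test, with 6 higher and 10 lower by adjusted p alone, the latter with *Mirg* at -0.94, *Rian* at -0.53 and *Meg3* at -0.49 (log2), non-coding RNAs of a single imprinted domain. Genes of the 2-cell-like state were too low to test, 0 of 27, and their summed level was 0.786 to 1.44 CPM in *Hp1γ* KO and 0.380 to 0.529 CPM in *Hp1α* KO. The cofactors of silencing differed little. Of 19 partners of SETDB1 and HP1, 9 were higher and 2 lower by adjusted p alone and 0 were called, with a median of 0.09 (log2), and of 6 H3K9 methyltransferase genes 1 was lower by adjusted p alone. *Setdb1* was at 205, 203 and 210 CPM against 193, 193 and 197 CPM (0.08, adjusted p = 0.0933, edgeR's quasi-likelihood test), and *Trim28* differed by 0.09 (log2). Of 24 tested protocadherins 2 were called lower, beside the same 0.661%, *Pcdhgb8* (-1.75) and *Pcdhga3* (-1.18), with a list median of -0.31 (log2). *Pcdhgb8* had 33 counts in all of *Hp1γ* KO and 111 in *Hp1α* KO, and *Pcdhga3* had 42 and 95. Their gene models overlap, so reads can be split among them. *Pcdhga3* kept its call only when *Hp1γ* KO replicate 3 was the library left out, with adjusted p of 0.0538 to 0.126 without any of the other 5 in edgeR's quasi-likelihood test.

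Further lists gave 0 calls except for RNAs without a poly(A) tail. By adjusted p alone, beside 9.31% of all tested genes higher and 9.36% lower, 11 of 27 gene models of the hypoxia and glycolysis list were lower and 1 higher, and of 29 glutathione genes 8 were lower and 2 higher, while of 19 p53 target genes 6 were higher and 0 lower and of 32 collagen and matrix genes 14 were higher and 6 lower. Of 21 actin and contractile genes 3 were higher and 5 lower, of 13 PRC1.6 subunit genes 5 higher and 1 lower, and of 10 genes of X and Y dosage 4 higher and 0 lower. Of 13 feeder fibroblast markers 3 were higher and 1 lower, and their part in the collagen counts was not tested. 2 of the 4 tested RNAs without a poly(A) tail were called higher, *Rn7s1* and *Rn7s2*, identical copies of the signal recognition particle RNA whose call rested on *Hp1γ* KO replicate 1. *Rn7s1* was at 5.64, 0.662 and 0.603 CPM in *Hp1γ* KO and 0.507, 0.309 and 0.856 CPM in *Hp1α* KO, and its difference went from 2.01 (adjusted p = 0.0499, edgeR's quasi-likelihood test) to 0.18 (adjusted p = 0.875) without that library.

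The same exchange of HP1γ for HP1α loss was then followed in cells that also lacked HP1β, where *Slc15a2*, *Cyp2b23* and *Tlr2* were again higher without HP1γ and *Rhox5* was no longer lower. The contrast took the difference of *Hp1β/γ* DKO and *Hp1α/β* DKO from their wild-type sets, because they were deposited with different ones, and it shares no library with the comparison above. Of 17087 genes tested, 1431 (8.37%) were called, 941 (5.51%) higher and 490 (2.87%) lower. Of the 155 genes higher in *Hp1γ* KO than in *Hp1α* KO, 150 were tested in the absence of HP1β, 55 (36.7%) were called higher and 5 (3.33%) lower, and 121 were above 0. They made up 5.84% of the 941 genes called higher there. Of the 104 lower genes, 101 were tested, 10 (9.9%) were called lower and 23 (22.8%) higher. They made up 2.04% of the 490 genes called lower there. *Cbx5* is among the 55 and *Cbx3* among the 10 as genes targeted in the mutants compared, so their calls follow from the genotypes. The called-higher genes thus lay mostly on the same side of 0 without HP1β, while 75 of the 101 called-lower genes lay above 0. The standard error there was 2 or more for 9 of the called-higher genes and 0 of the called-lower ones, so the side of those 9 is uncertain. The medians were 1.04 and 0.69 (log2), beside 0.01 over all genes tested there. Set B held some genes at or near 0 that had reads in set A, among them *Zp3r* with a mean of 0.187 CPM in set B against 11.5 CPM in set A, and 6 of the 150 genes were listed at 0 in both set B and *Hp1β/γ* DKO. Whether the tables of sets A and B were made with the same annotation and settings is not stated, and every value of this contrast rests on both. The number of calls cannot be set against that of the single mutants, since the fits differ in form. With the double mutants compared directly, 66 of the 139 tested called-higher genes were called higher and 19 lower. Of 89 called-lower genes 35 were called higher and 10 lower. That fit leaned to the higher side over all genes, with 1550 called higher and 819 lower.

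Genes that rose in both comparisons included *Slc15a2* (5.18 without HP1β), *Gm17131* (3.68), *Gm49273* (3.70), *Tlr2* (3.02), *Cyp2b23* (2.80) and *Mep1b* (2.66), all called. *Cyp2b23* reached a mean of 444 CPM in *Hp1β/γ* DKO and 50.5 CPM in *Hp1α/β* DKO, against 18.8 CPM in *Hp1β* KO. *Arntl2* was at 139 CPM in *Hp1β/γ* DKO and 68.1 CPM in *Hp1α/β* DKO, a difference of 1.03 (log2) when compared directly. Its wild-type means were 14.6 CPM in set A and 23.6 CPM in set B. With each double mutant taken from its wild-type set, the value was 0.35 (log2), under 2-fold. In the chromosome 4 stretch 20 of 46 genes were called higher and 0 lower without HP1β, 45 were above 0 and the median was 1.05 (log2). In the direct comparison, which called 1550 genes higher and 819 lower in all, 18 of the 46 were called higher and 9 lower. There 31 of the 46 were above 0 and the median was 0.47. Between the wild-type sets 13 of these genes were over 2-fold higher in set A and 3 in set B. *Zfp600* (293 against 57.0 CPM) went from 1.06 to -1.31 and *Zfp986* from 0.87 to -0.03 in the direct comparison, while *Rex2* stayed at 1.43 and 1.21 and *Zfp985* at 1.55 and 2.24. Genes that kept a fall included *Pclo* (-1.39), *Khdc3* (-1.01) and *Trh* (-1.77). *Cbx3* was lower in both comparisons as the gene targeted in *Hp1γ* KO and *Hp1β/γ* DKO. *Rhox5* turned from -2.74 to 1.59, *4930586N03Rik* from -3.06 to 2.61 and *Pnma5* from -1.65 to 3.88 (log2). The interferon list genes called lower in *Hp1γ* KO lay above 0 without HP1β and were not called there. *Oasl2* was at 0.88, *Psmb8* at 0.80 and *Ifit1* at 1.77 (log2). The difference between the 2 comparisons passed at an adjusted p under 0.05 for 4850 of 15641 genes. All 28 genes called in opposite directions were among them, which follows largely from how those 28 were selected. Of the 28, 23 were lower in *Hp1γ* KO and higher without HP1β. Compared directly, 25 of the 28 kept the sign they had without HP1β, while *Ankub1* went from 2.16 to -1.24, *Fcgr2b* went from -1.74 to 0.02 (log2) and *Spag6l* was not tested.

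**Figure D5:**
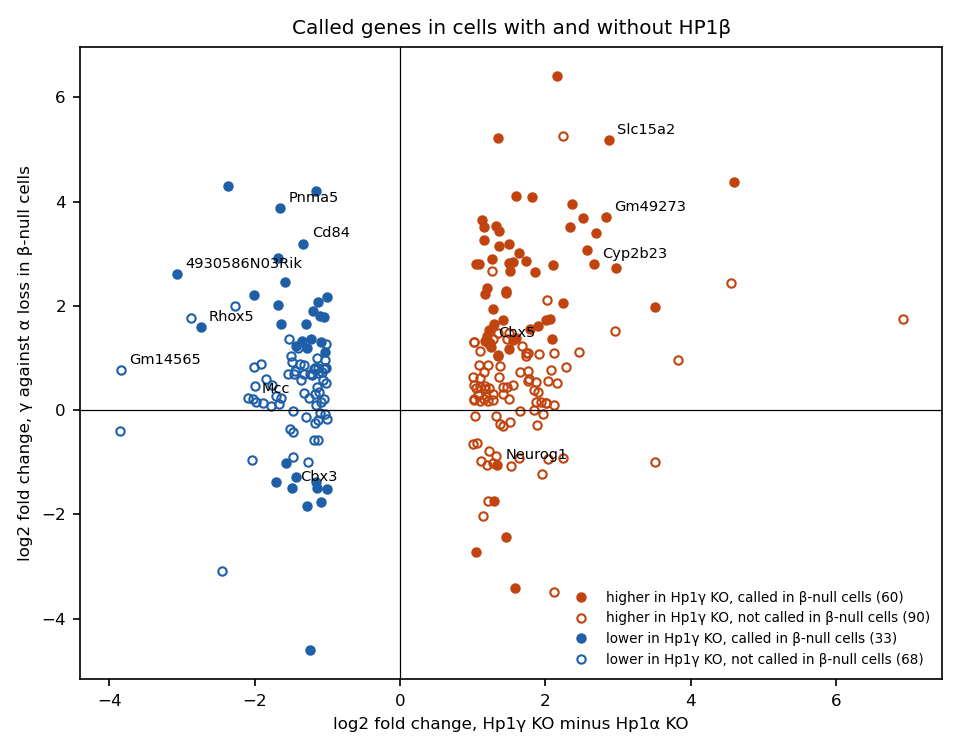
Difference for the loss of HP1γ against the loss of HP1α in cells without HP1β (log2, vertical axis) against that in cells with HP1β (horizontal axis) for the genes called in the latter, filled where they were also called without HP1β. Of the called-higher genes 121 of 150 lie above 0 on the vertical axis, as do 75 of 101 of the called-lower genes. Values with a standard error of 2 or more, for 9 called-higher genes, are drawn and counted.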

How the data were processed

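The authors isolated RNA from ESCs after depleting feeder fibroblasts by plating and made TruSeq libraries. The submitters' processing notes name TopHat2 2.1.1, RSEM and GRCm38.p5. The tables that the authors deposited, 1 per mutant, hold RSEM expected counts, TPM values and the authors' own fold changes and p-values against wild type. The expected counts of 24 libraries, which the authors deposited per gene, were used after rounding to whole numbers, while the TPM columns and the authors' comparisons were not used. Tables were joined on the Ensembl gene ID, and 55141 of 55487 IDs matched GENCODE M21 (GRCm38), which gave coordinates and biotypes.

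Genes were kept by filterByExpr with a minimum count of 10, scaled by TMM and tested with edgeR 4.0.16 (R 4.3.3, limma 3.58.1) by the quasi-likelihood test with Benjamini-Hochberg adjustment over all genes tested. Calls needed an adjusted p below 0.05 together with a log2 difference beyond 1 in either direction. Standard errors were the log2 difference divided by the square root of the F statistic. CPM were put on 1 TMM scale over the 24 libraries. Values beside wild type are log2 ratios of mean CPM with 0.1 added. The second comparison took (*Hp1β/γ* DKO minus wild type set B) minus (*Hp1α/β* DKO minus wild type set A). Scripts were tested on simulated data.

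Totals per library ran from 19961367 to 24699608 counts over both groups, and intervals from counts cover counting error only. Same-numbered libraries of the mutants had deviations correlated at 0.064, 0.035 and -0.033 over 11374 genes, so the numbers were not taken to pair them. Named genes were the HP1 genes, the 15 largest rises and 15 largest falls among called genes with a symbol, non-overlapping groups and 5 CPM or more on average in the higher of them, and called members of the gene lists. 1 of the rises is not reported here. The runs of called genes (at least 4 with gaps of at most 500 kb), their genes, *Trh*, *Prickle1* and *Gfra1* were chosen after the values were seen. The gene lists and the members were chosen with earlier results of these data known. Other scalings, filters, thresholds, fits and DESeq2 1.42.0 were tried.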

Additional observations from a re-analysis of the deposited data

Results flagged for a closer look

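For 7 of the genes named here, the difference between *Hp1γ* and *Hp1α* loss was called in opposite directions with and without HP1β. The difference between the comparisons was itself tested in an edgeR quasi-likelihood fit over 18 libraries, chosen after the data were seen. The 7 genes were picked by their opposite calls, so a low adjusted p follows largely from that choice and adds no separate support. The change from the setting without HP1β to that with HP1β, on the log2 scale, was -5.66 for the antisense transcript *4930586N03Rik* (adjusted p = 3.5e-17), -5.52 for *Pnma5* (1.9e-13), -4.52 for *Cd84* (5.76e-09), -4.33 for *Rhox5* (2.92e-16), -4.22 for *Xlr3a* (8.02e-07) and -3.29 for *Ptprtos* (1.42e-13). All 6 were lower in *Hp1γ* KO than in *Hp1α* KO and higher without HP1β. *Neurog1* went the other way with a change of 2.39 (4.23e-05). When the double mutants were compared directly, without their wild-type sets, the signs without HP1β were the same, at 2.93, 4.02, 2.16, 1.49, 2.65 and 1.35 for the 6 and -1.15 for *Neurog1* (log2). *Rhox5* and *Pnma5* lie on the X chromosome, and *Xlr3a* lies within the X-linked run of called genes next to *Pnma5*, in a family of near copies among which reads can be split. *Xlr5a* of the same family was called the other way in *Hp1γ* KO against *Hp1α* KO, at 2.95 beside -2.01 for *Xlr3a* (log2). The wild-type means in sets A and B were 34.8 and 43.9 CPM for *4930586N03Rik*, 5.01 and 5.60 for *Pnma5*, 8.80 and 4.32 for *Cd84*, 16.1 and 15.2 for *Rhox5*, 1.20 and 1.65 for *Xlr3a*, 26.2 and 21.3 for *Ptprtos* and 2.74 and 2.56 for *Neurog1*, so *Cd84* carried a 2-fold gap between the sets that enters its value.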

How the results depend on the processing

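For *Hp1γ* KO against *Hp1α* KO, 259 genes (155 higher, 104 lower) became 166 (91 higher) with at least 10 counts required in every library, 36 (25 higher, 11 lower) when the change itself had to exceed 1 on the log2 scale (glmTreat), and 2938 (1465 higher, 1473 lower) by adjusted p alone. Leaving out each library in turn gave 230 to 261 genes, 136 to 152 higher and 86 to 114 lower. Without HP1β, 1431 genes (941 higher, 490 lower) became 2369 (1550 higher, 819 lower) when the double mutants were compared directly without the wild-type sets, and 5606 (2815 higher, 2791 lower) by adjusted p alone, and leaving out each library gave 1312 to 1441, 842 to 935 higher and 453 to 514 lower. Counts under RLE scaling, DESeq2, no count filter and a joint fit stayed within 1.5 times these, at 261, 206, 361 and 266 genes for the first comparison, and at 1431 and 1478 under RLE and DESeq2 for the second. With the replicate number as a replicate block the counts were 256 (155 higher, 101 lower) and 1382 (898 higher, 484 lower). The libraries share only a number, and not every library correlated best with the one of its own number. The genes followed were those named by rule, the called list members and the called genes of the runs, without *Trh*, *Prickle1* and *Gfra1*. Of 869 values for these 68 genes, 776 stayed on the same side of the call, 93 kept their direction and lost it, and 0 reversed. A gene that a setting filtered out or left without an adjusted p gave no value there and is not counted as lost. Outside glmTreat the lost calls fell on 13 genes, among them *Zfp992*, *Gm48551*, *Psmb8*, *Rhox9*, *Pcdhga3* and *Rn7s1*. The causes of these moves were not tested beyond what each setting changes by construction. Depth limits the many called genes under 5 CPM most.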
